A study of Homo sapiens with 63 samples.

Results

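The ibuprofen probe form was compared with the ibuprofen photocaged form 12 h into the experiment, in 3 libraries of each, over every gene that could be tested. The members are the 6 libraries that carry these labels, out of 63 in the series. The cells were HEK293T, an established human embryonic kidney line, and all groups used here came from cells made to express Halo, a protein tag that binds a chloroalkane ligand covalently. Per the series design, cells were given a precursor named Ht-Pre-AG-ibuprofen or Ht-Pre-AG-ibufenac at 10 µM for 2 h, washed, and lit for 3 min at 365 nm and 5 mW/cm2, which frees the AG form of the drug. The groups set beside the comparison are DMSO, the same ibuprofen forms at 6 and 18 h, and the ibufenac forms and the ibuprofen bolus at 12 h, with 3 libraries each. What sets the photocaged form apart from the probe form, whether either was left unlit, the bolus dose, and whether replicates were separate cultures cannot be read from the labels. The p-values therefore measure the spread between these libraries, which may be technical. The labels do not say whether the Halo cells are 1 clone.

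Ibuprofen is a nonsteroidal anti-inflammatory drug that inhibits the cyclooxygenases, and ibufenac is an older relative that lacks the methyl group beside its carboxylic acid. Carboxylic acid drugs are conjugated in the liver to acyl glucuronides, which are reactive and can modify proteins. Cells meet reactive electrophiles with several transcription programs. NRF2 is released from KEAP1 when KEAP1 cysteines are modified, and then switches on genes for glutathione, thioredoxin, haem breakdown and iron storage. HSF1 switches on chaperones when unfolded proteins accumulate, and ATF4 switches on amino acid synthesis and transport when translation initiation is slowed. HEK293T cells are not hepatocytes and have little of the liver's drug conjugation.

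The sequences before a RefSeq start of 4 genes that the results turn on are shown first, since each carries the motif of the program it stands for. They come from RefSeq on GRCh38.p14 and are the 250 bases before a gene start, read 5′ to 3′ on the gene's own strand, with the motif match in capitals; RARB has 4 starts in that table and TXNRD1 and ASNS 2 each, and the window with the match is shown. TXNRD1 encodes thioredoxin reductase, and the window at chr12:104215529-104215778 on the plus strand holds the antioxidant response core TGACNNNGC 99 bases before the start. RARB encodes a retinoic acid receptor, and the window at chr3:25428013-25428262 on the plus strand holds the retinoic acid response repeat, GTTCA written 2 times with any 6 bases between, 52 bases before the start. ASNS encodes asparagine synthetase, and the window at chr7:97872409-97872658 on the minus strand holds the ATF4 motif TGATGNAA 68 bases before the start. HSPA8 encodes the constitutive HSC70 chaperone, and the window at chr11:123062137-123062386 on the minus strand holds the heat shock motif, GAA, TTC and GAA with any 2 bases between each, at 230 bases before the start and, on the other strand, at 55. Relative to the gene spans given below, the HSPA8 and RARB windows lie inside the gene and the ASNS window partly inside. The starts used for these genes are therefore not the outermost starts of those spans.
TXNRD1: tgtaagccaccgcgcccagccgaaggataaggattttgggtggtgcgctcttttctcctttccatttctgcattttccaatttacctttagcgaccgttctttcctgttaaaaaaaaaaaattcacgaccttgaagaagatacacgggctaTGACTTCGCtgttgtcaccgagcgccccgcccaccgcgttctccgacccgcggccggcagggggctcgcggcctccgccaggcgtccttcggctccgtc
RARB: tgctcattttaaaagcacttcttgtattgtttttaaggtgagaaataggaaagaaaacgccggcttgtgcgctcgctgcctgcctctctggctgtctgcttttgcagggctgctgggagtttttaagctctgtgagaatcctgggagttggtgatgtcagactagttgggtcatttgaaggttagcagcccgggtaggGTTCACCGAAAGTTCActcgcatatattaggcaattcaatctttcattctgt
ASNS: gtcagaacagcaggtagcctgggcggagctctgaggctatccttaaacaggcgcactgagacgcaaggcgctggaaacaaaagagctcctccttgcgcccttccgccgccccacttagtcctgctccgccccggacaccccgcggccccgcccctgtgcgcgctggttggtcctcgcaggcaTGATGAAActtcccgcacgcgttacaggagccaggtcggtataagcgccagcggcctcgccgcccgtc
HSPA8: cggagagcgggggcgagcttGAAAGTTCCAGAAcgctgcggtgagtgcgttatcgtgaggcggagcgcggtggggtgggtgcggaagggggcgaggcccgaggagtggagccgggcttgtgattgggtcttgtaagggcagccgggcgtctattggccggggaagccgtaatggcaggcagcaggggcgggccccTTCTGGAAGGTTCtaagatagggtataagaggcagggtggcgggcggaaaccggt
Each motif was searched on both strands of 35116 RefSeq windows of the same kind that also take in the 50 bases after the start. TGACNNNGC was in 13.35% of them, TGATGNAA in 3.617%, the heat shock motif in 0.4898% and the retinoic acid repeat in 0.05695%. Among listed genes with a window, TGACNNNGC was in 6 of 21 NRF2 targets (28.57%), but also in 7 of 21 heat shock genes (33.33%) and 13 of 31 ATF4 targets (41.94%), so it does not mark the NRF2 list. TGATGNAA was in 11 of 31 ATF4 targets, 1 of 21 heat shock genes and 0 of 21 NRF2 targets. The heat shock motif was in 7 of 21 heat shock genes and in 0 of either other list. A match is a description of the letters and not of a bound site.

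No gene passed an adjusted p of 0.05 between the probe and the photocaged form at 12 h: edgeR's quasi-likelihood test called 0 of 19352 genes, a percent called of 0. At an unadjusted p under 0.05 there were 1050 genes, or 5.43%, of which 468 (2.42%) had higher levels in the probe libraries and 582 (3.01%) lower levels. DESeq2 called 12 genes, 1 higher and 11 lower. The 3 libraries of each form did not overlap for 2914 genes (15.1%), with the probe higher for 1496 (7.73%) and lower for 1418 (7.33%). The median log2 difference over all tested genes was 0.004, and 50.8% of genes lay above 0.

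A miss of the threshold does not show that the forms act alike, and the intervals give how much difference the libraries could hide. For the 9813 genes with a mean of at least 10 counts per 1000000 (CPM), the 95% interval of the probe-minus-photocaged difference lay inside 1.5-fold in either direction for 92.0% and inside 2-fold for 99.16%, with a median standard error (SE) of 0.112 on the log2 scale. For the 4754 tested genes under 1 CPM the interval lay inside 2-fold for 0.463%, with a median SE of 0.999. Differences of 1.5-fold are thus bounded for most well-expressed genes, whereas at the lowest levels even 2-fold differences were not detectable at this depth.

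Depth was alike in the compared groups. Totals were 19.6 to 20.9 M counts (M, 1000000) in the probe libraries and 20.1 to 21.5 M in the photocaged libraries, against 12.1 to 38.4 M in the series. Protein-coding genes took 72.8% to 75.1% and 72.5% to 74.5% of counts, and mitochondrial transcripts 0.26% to 0.33% and 0.21% to 0.31%. All 14 genes on the HEK293 marker list were detected, with summed levels of 677 to 692 CPM in the probe and 609.7 to 653 CPM in the photocaged libraries. Of the other marker lists, 8 of 16 hepatocyte genes were at 0 in all 6 libraries (APOB, TTR and SERPINA1 among them), with sums of 63.9 to 76.6 CPM in the probe and 58.3 to 64.9 CPM in the photocaged libraries. Of 14 blood genes 7 were at 0, PTPRC among them, with sums of 3.09 to 4.39 and 3.75 to 5.35 CPM. Of 14 fibroblast and endothelial genes 3 were at 0, with sums of 29.9 to 36.0 and 28.8 to 33.7 CPM. Of 10 epithelial genes 3 were at 0 (KRT19, KRT7, CLDN3), with sums of 62.8 to 71.4 CPM in the probe and 73.2 to 75.2 CPM in the photocaged libraries, so that this sum and that of the HEK293 list did not overlap between forms; their part in the results was not tested. In bulk RNA, fewer cells of a type and less RNA per cell cannot be told apart.

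**Figure D1:**
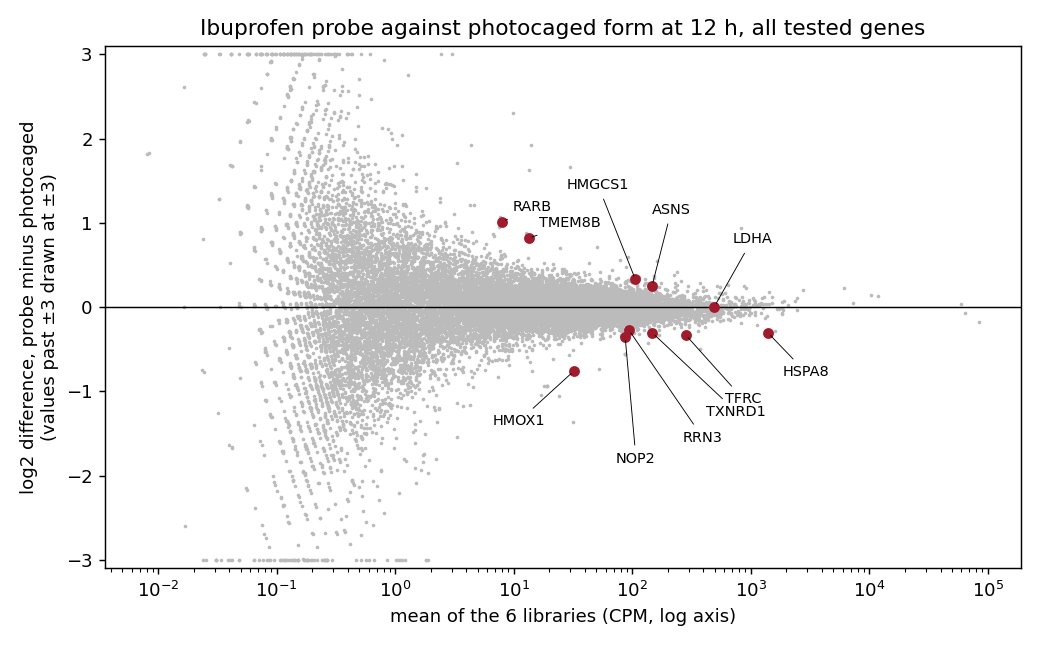
Log2 difference between ibuprofen probe and photocaged form at 12 h (y axis) against the mean level of the 6 libraries in CPM (x axis, log axis), 1 point per tested gene, with named genes in red and values past 3 in either direction drawn at 3. The cloud narrows as levels rise, with HMOX1 at -0.76 and RARB at 1.01, and no gene passed the threshold.

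The smallest adjusted p-values belonged to 3 genes with lower levels in the probe libraries, each at an adjusted p of 0.0518. These and the other genes picked for a small p were chosen after their values were seen. The first is HMOX1 (ENSG00000100292, chr22:35380361-35394214 on the plus strand in GENCODE release 29 on GRCh38), which encodes haem oxygenase, the haem-degrading enzyme and a standard NRF2 target. Its level was 23.6, 27.9 and 20.2 CPM in the probe libraries and 39.8, 40.0 and 41.6 CPM in the photocaged libraries. The highest probe library lay below the lowest photocaged library, and the 3 photocaged values lay close together. The log2 difference was -0.76 ± 0.15 (SE, n = 3 and 3) with a 95% interval of -1.06 to -0.46, an unadjusted p of 4.67e-06 by edgeR. DMSO libraries held 27.9, 17.4 and 26.6 CPM and bolus libraries 19.8 to 22.2 CPM, and both overlapped the probe libraries. Against DMSO, HMOX1 rose in the photocaged form by 0.75 ± 0.15 (edgeR adjusted p = 0.00446), whereas the probe form differed from DMSO by -0.01 with an interval of -0.31 to 0.29. Over all genes, 381 (1.97%) were called for the probe against DMSO and 131 (0.677%) for the photocaged form. These comparisons share libraries with one another and with that between the forms.

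TXNRD1 (ENSG00000198431, chr12:104215779-104350305, plus strand), whose product reduces thioredoxin and whose upstream motif is shown above, had 143, 119 and 135 CPM in the probe and 176, 158 and 157 CPM in the photocaged libraries. The groups did not overlap. The log2 difference was -0.30 ± 0.06 (SE, n = 3 and 3; interval -0.43 to -0.18; unadjusted p = 8.03e-06). DMSO stood at 128, 138 and 139 CPM, again overlapping the probe libraries, and TXNRD1 rose over DMSO in the photocaged form by 0.28 (edgeR adjusted p = 0.0169).

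NOP2 (ENSG00000111641, chr12:6556863-6568691, minus strand), a nucleolar methyltransferase of ribosomal RNA, had the other pattern. Its level was 76.8, 75.4 and 77.7 CPM in the probe, 98.9, 94.5 and 100.3 CPM in the photocaged and 100.2, 99.7 and 97.2 CPM in the DMSO libraries. Here the photocaged libraries overlapped DMSO and the probe libraries stood lower. The bolus libraries, at 77.4 to 92.8 CPM, overlapped the probe libraries and lay below every photocaged and DMSO library. The log2 difference between forms was -0.35 ± 0.07 (interval -0.49 to -0.21; unadjusted p = 5.86e-06), and against DMSO NOP2 fell in the probe form by 0.37 (edgeR adjusted p = 0.00121). RRN3, the factor that recruits RNA polymerase I to ribosomal DNA, showed the same order, with 80.7 to 89.8 CPM in the probe against 97.8 to 108 CPM in the photocaged libraries (-0.27 ± 0.06, edgeR adjusted p = 0.0803). TFRC, the transferrin receptor for iron uptake, had 231 to 263 CPM against 290.5 to 339.5 CPM (-0.33 ± 0.08, edgeR adjusted p = 0.109). Against DMSO both fell in the probe form, RRN3 by 0.32 (edgeR adjusted p = 7.88e-04) and TFRC by 0.42 (edgeR adjusted p = 9.42e-04).

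Among genes with higher levels in the probe libraries, RARB (ENSG00000077092, chr3:25174332-25597932, plus strand) was read by rule whether called or not. It encodes retinoic acid receptor beta, itself a classical retinoic acid target through the repeat shown above. The probe libraries held 8.69, 10.3 and 13.1 CPM and the photocaged libraries 4.92, 5.12 and 5.85 CPM, with no overlap. The log2 difference was 1.01 ± 0.23 (interval 0.54 to 1.48; edgeR adjusted p = 0.109). DMSO libraries held 11.5, 12.0 and 13.03 CPM and bolus libraries 9.79 to 12.8 CPM, so the photocaged libraries were the low ones. Against DMSO, RARB fell in the photocaged form by 1.20 (edgeR adjusted p = 0.00395) and differed in the probe form by -0.19 (interval -0.64 to 0.26). Of 20 tested retinoic acid genes, 2 (10.0%) were higher and 0 lower at an unadjusted p under 0.05, against 2.42% and 3.01% of all genes. The 2 were RARB and STRA6, the cellular retinol importer, and the list's median was 0.06.

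**Figure D2:**
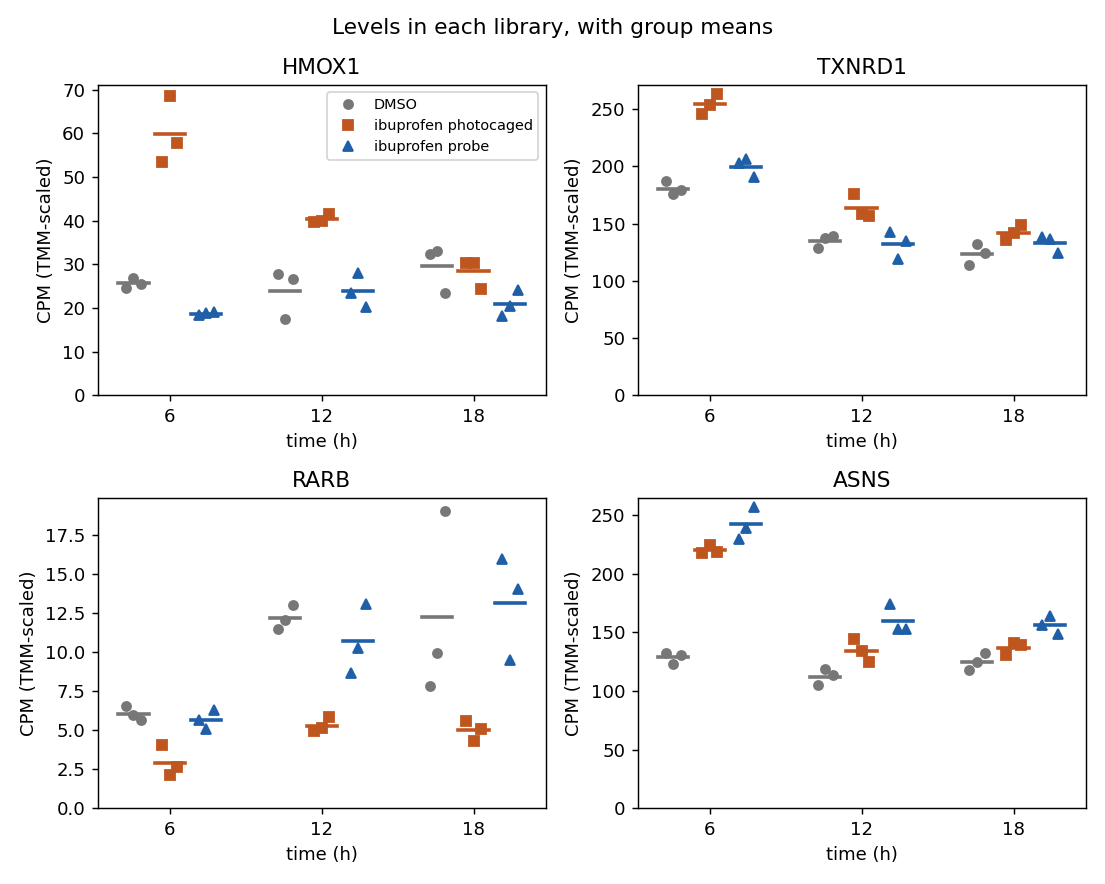
CPM of HMOX1, TXNRD1, RARB and ASNS (y axis, from 0) in each library at 6, 12 and 18 h (x axis), with a bar at the mean of 3 libraries for DMSO (circles), the photocaged form (squares) and the probe form (triangles). At 12 h the photocaged libraries are the highest for HMOX1 and TXNRD1 and the lowest for RARB, and probe libraries overlap DMSO for these 3 genes.

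The NRF2 targets as a list leaned towards lower levels in the probe form. Of 30 listed genes 27 passed the filter on low counts, 20 of them below 0, with 6 lower (22.2%) and 1 higher (3.70%) at an unadjusted p under 0.05, against 3.01% and 2.42% of all tested genes. The list's median log2 difference was -0.12, against 0.004. Besides HMOX1 and TXNRD1, the lower members were FTL, the ferritin light chain, at -0.28 ± 0.07, PRDX1, a peroxiredoxin, at -0.24 ± 0.07, PIR at -0.52 ± 0.23 and ME1, malic enzyme, at -0.30 ± 0.13. Their place relative to DMSO differed. For PRDX1 the photocaged libraries (313 to 349 CPM) overlapped DMSO (330 to 352 CPM), and the probe libraries (266 to 297 CPM) lay below both. For FTL and PIR the photocaged libraries lay above DMSO, and for ME1 both forms overlapped DMSO. FTL has processed pseudogenes that can share its reads, so its level is uncertain. The higher member was SLC7A11, the cystine importer, with 93.4 to 101 CPM in the probe against 73.3 to 82.2 CPM in the photocaged libraries (0.28 ± 0.10); it is also on the ATF4 list. GCLM, a subunit of the rate-limiting enzyme of glutathione synthesis, differed by -0.15 (interval -0.35 to 0.05), with -0.24 without probe replicate 1 and -0.077 without probe replicate 2. Leaving out each library in turn gave 4 to 7 lower members. Against DMSO at 12 h, 2 of 27 NRF2 targets rose in the photocaged form, where 0.0982% of all genes were called higher. In the probe form 1 of 27 fell, where 1.61% of all genes were called lower.

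The HSF1 list had 21 of 23 tested chaperone genes below 0 and a median of -0.15. At an unadjusted p under 0.05, 8 were lower (34.8%) and 0 higher, against 3.01% and 2.42% of all genes. HSPA8 (ENSG00000109971, chr11:123057489-123063230, minus strand) held 1294, 1237 and 1227 CPM in the probe, 1595, 1555 and 1497 CPM in the photocaged and 1585, 1651 and 1597 CPM in the DMSO libraries. The probe libraries stood below both other groups. The difference between forms was -0.31 ± 0.07 (interval -0.44 to -0.17; edgeR adjusted p = 0.107), and against DMSO HSPA8 fell in the probe form by 0.36 (edgeR adjusted p = 0.00121). The co-chaperones FKBP4 (-0.21 ± 0.06), STIP1 (-0.16 ± 0.07) and HSPH1 (-0.21 ± 0.10), and the mitochondrial chaperonin HSPE1 (-0.24 ± 0.10), also had no overlap between forms. HSPA1B, an inducible HSP70, differed by -0.19 with an interval of -0.70 to 0.32, and its near-identical copy HSPA1A shares its reads; without photocaged replicate 3 the value was -0.037. The count of lower members fell to 2 without probe replicate 3 and to 4 without photocaged replicate 1. Against DMSO, 8 of the 23 fell in the probe form, where 1.61% of all genes were called lower, and 1 in the photocaged form, where 0.579% were.

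Proteasome subunits had the same lean. Of 33 tested genes 31 lay below 0, with a median of -0.14. There were 11 lower (33.3%) and 0 higher at an unadjusted p under 0.05, against 3.01% and 2.42% of all genes. PSMC5, an ATPase of the base, held 50.9, 48.0 and 49.4 CPM in the probe and 66.0, 60.3 and 62.6 CPM in the photocaged libraries, with DMSO between at 56.3 to 57.5 CPM (-0.35 ± 0.10; edgeR adjusted p = 0.44). PSMB5, the chymotrypsin-like catalytic subunit, held 109.7 to 113 CPM against 125 to 136 CPM (-0.22 ± 0.08). Neither gene overlapped between forms. The count of 11 rested on single libraries: it was 4 without photocaged replicate 1, 5 without probe replicate 3 and 17 without probe replicate 1. The list's median kept its sign when each library was left out, from -0.18 to -0.11.

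Of 38 G2/M and mitosis genes, 32 lay below 0, with a median of -0.06. There were 5 lower (13.2%) and 0 higher at an unadjusted p under 0.05, against 3.01% and 2.42% of all genes. KIF20A, a kinesin of cytokinesis, held 65.8, 60.3 and 61.5 CPM in the probe and 78.8, 74.3 and 78.5 CPM in the photocaged libraries (-0.30 ± 0.09). CCNB1, the cyclin that drives mitotic entry, differed by -0.19 ± 0.07. The count was 2 without photocaged replicate 1 and 2 without probe replicate 2, and the median was -0.10 without probe replicate 1. For 38 G1/S and replication genes, 3 were lower (7.9%) and 0 higher at the same p, with a median of -0.01.

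ATF4 targets divided into members with higher levels in the probe form and a majority near 0. Of 36 tested genes 22 lay above 0, with a median of 0.04 that was -0.02 without probe replicate 1. There were 7 higher (19.4%) and 0 lower at an unadjusted p under 0.05, against 2.42% and 3.01% of all genes. ASNS (ENSG00000070669, chr7:97852118-97872542, minus strand) held 174, 153 and 153 CPM in the probe and 144, 134 and 125 CPM in the photocaged libraries, above DMSO at 105, 118 and 113 CPM. The 3 groups did not overlap, with DMSO lowest and the probe highest. The difference between forms was 0.25 ± 0.07 (interval 0.11 to 0.39; edgeR adjusted p = 0.42). Against DMSO, ASNS rose in the probe form by 0.51 (edgeR adjusted p = 2.61e-05) and differed in the photocaged form by 0.26 (edgeR adjusted p = 0.0657). PHGDH, the first enzyme of serine synthesis, held 246, 260.5 and 246 CPM in the probe, 205, 197 and 214 CPM in the photocaged and 162 to 173 CPM in the DMSO libraries (0.29 ± 0.08 between forms). PHGDH rose over DMSO in the probe form by 0.59 (edgeR adjusted p = 8.30e-06) and in the photocaged form by 0.30 (edgeR adjusted p = 0.0429).

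The other higher ATF4 members were PSAT1 and MTHFD2, of serine and mitochondrial folate metabolism (0.25 ± 0.09 and 0.20 ± 0.07), SLC7A1, the cationic amino acid transporter (0.26 ± 0.10), SLC7A11, and DDIT4, an inhibitor of mTORC1 (0.44 ± 0.16). TRIB3, a pseudokinase induced late in the response, differed by 0.17 (interval -0.02 to 0.36), and DDIT3, which encodes CHOP, by -0.17 (interval -0.42 to 0.07). Of the 7 higher members, DDIT4 was the 1 outside amino acid and folate metabolism or transport, and DDIT3 was not among them. For DDIT4 the probe libraries (73.9 to 80.7 CPM) overlapped DMSO (65.5 to 77.6 CPM), and the photocaged libraries (52.1 to 61.3 CPM) lay below both. Against DMSO, 8 of 36 ATF4 targets rose and 1 fell in the probe form, where 0.362% of all genes were called higher and 1.61% lower. In the photocaged form 1 of 36 rose, where 0.0982% of all genes were called higher. The endoplasmic reticulum's unfolded protein response, which shares DDIT3 with this program, had 25 tested genes and a median of -0.07. Of these, 2 were higher (8%) and 3 lower (12%) at an unadjusted p under 0.05, against 2.42% and 3.01% of all genes. Its chaperone HSPA5 differed by 0.02 (interval -0.26 to 0.29) and its factor XBP1 by -0.06 (interval -0.19 to 0.07).

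Genes of cholesterol synthesis lay above 0 for 24 of 25 members, with a median of 0.11. There were 5 higher (20%) and 0 lower at an unadjusted p under 0.05, against 2.42% and 3.01% of all genes. HMGCS1 (ENSG00000112972, chr5:43289395-43313512, minus strand), which makes the HMG-CoA that the pathway starts from, held 117, 118 and 121 CPM in the probe, 92.8, 95.4 and 94.9 CPM in the photocaged and 96.1, 106 and 104 CPM in the DMSO libraries. All 3 probe libraries stood above the photocaged and DMSO libraries of that time, and the bolus libraries, at 106 to 124 CPM, overlapped them. The difference between forms was 0.33 ± 0.07 (interval 0.19 to 0.47; edgeR adjusted p = 0.0803). IDI1, the isopentenyl isomerase (0.29 ± 0.09), SQLE, squalene epoxidase (0.19 ± 0.08), and INSIG1, a sterol sensor (0.24 ± 0.10), were also among the 5. The count was 2 without probe replicate 1, 3 without photocaged replicate 2 or 3 and 4 without each of the others, and the median stayed between 0.08 and 0.14. Against DMSO, 1 of the 25 rose in the probe form, where 0.362% of all genes were called higher, and 0 in the photocaged form, where 0.0982% were.

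**Figure D3:**
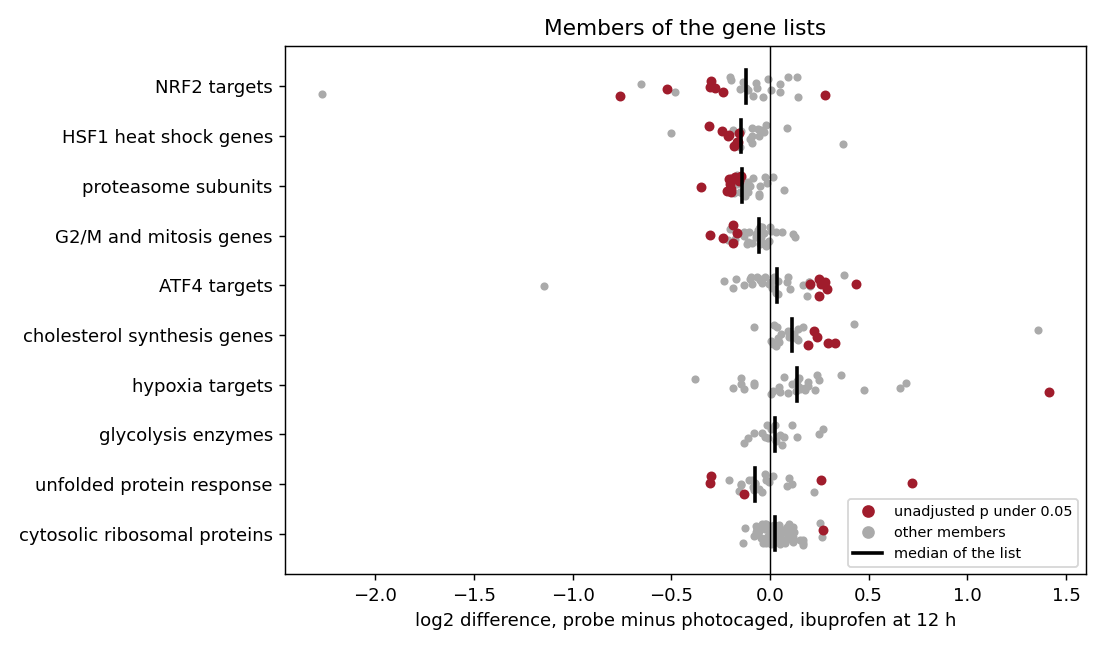
Log2 difference between ibuprofen probe and photocaged form at 12 h (x axis) for the tested members of 10 gene lists (y axis), with members at an unadjusted p under 0.05 in red, others in grey and a black bar at the list's median. NRF2, HSF1, proteasome and G2/M members lie mostly below 0, cholesterol synthesis members mostly above 0, and no member passed the adjusted threshold.

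LDHA, PGK1 and GNG2 were called against DMSO in both forms, in comparisons that share the DMSO libraries. The difference between the forms was near 0 for LDHA and PGK1, while that of GNG2 was poorly bounded. LDHA, lactate dehydrogenase A, held 458, 479 and 548 CPM in the probe, 479, 480.3 and 520.0 CPM in the photocaged and 710.0, 733 and 742 CPM in the DMSO libraries. The forms overlapped and both lay below DMSO. Their difference was 0.01 (interval -0.27 to 0.28), and LDHA fell against DMSO in each form (-0.56 in both; edgeR adjusted p = 0.0181 for the probe and 0.0333 for the photocaged form). PGK1, phosphoglycerate kinase, differed between forms by 0.05 (interval -0.18 to 0.28) and fell against DMSO by 0.46 in the probe and by 0.51 in the photocaged form (edgeR adjusted p = 0.0209 and 0.0191). GNG2, a G protein gamma subunit, differed between forms by -0.17 (interval -0.99 to 0.66) and rose over DMSO by 1.68 and 1.85 (edgeR adjusted p = 0.0324 and 0.0328). CPT1A, the gate of mitochondrial fatty acid oxidation, differed between forms by -0.16 (interval -0.35 to 0.04) and rose over DMSO in the photocaged form by 0.45 (edgeR adjusted p = 0.015). SLC16A9, a carnitine transporter, differed between forms by -0.04 (interval -0.44 to 0.37), and CDH3, P-cadherin, by -0.17 (interval -0.99 to 0.65).

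Of 31 tested hypoxia targets 24 lay above 0, with a median of 0.14. Only 1 was higher (3.23%) and 0 lower at an unadjusted p under 0.05, against 2.42% and 3.01% of all genes. The higher member was MIR210HG, the host transcript of miR-210, at 2.08, 2.52 and 3.29 CPM in the probe and 1.02, 0.957 and 0.966 CPM in the photocaged libraries (1.41 ± 0.52; edgeR adjusted p = 0.669). DMSO libraries held 2.81 to 4.16 CPM, so the probe libraries overlapped DMSO and the photocaged libraries lay below it. VEGFA, the angiogenic factor, differed by 0.07 (interval -0.16 to 0.31). Against DMSO, 4 of the 31 hypoxia targets fell in each form, where 1.61% of all genes were called lower for the probe and 0.579% for the photocaged form, with list medians of -0.30 in the probe and -0.42 in the photocaged form. The 17 glycolysis enzymes gave 0 members at an unadjusted p under 0.05 and a median of 0.02. TXNIP, a glucose-responsive inhibitor of thioredoxin, differed by -0.07 (interval -0.44 to 0.30), and by -0.17 to -0.013 with each library left out.

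The drug's own targets were barely expressed. PTGS1 (COX-1) held 0.290, 0.296 and 0.499 CPM in the probe and 0.557, 1.05 and 0.305 CPM in the photocaged libraries, and its interval ran from -2.70 to 1.08. PTGS2 (COX-2) held 1.23 to 2.35 and 0.909 to 1.98 CPM, with an interval of -0.52 to 0.87. Groups overlapped for both genes, and the counts leave room for differences of more than 1.5-fold. Of 18 tested prostaglandin genes 1 was higher (5.56%) and 0 lower at an unadjusted p under 0.05, against 2.42% and 3.01% of all genes. Of 34 genes of drug and acyl glucuronide handling 17 could be tested, with 1 higher and 1 lower (5.88% each). With 17 genes, 1 member in each direction cannot be told from those shares, and the smallest edgeR adjusted p was 0.594. The higher member was APEH, at 0.24 (interval 0.07 to 0.41), which encodes an acylpeptide hydrolase that can cleave acyl glucuronides. The lower member was ABCG2, an efflux transporter, at -0.77 (interval -1.31 to -0.23).

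Lists of broader programs were read against the 2.42% of all genes that were higher and the 3.01% that were lower at an unadjusted p under 0.05. Of 79 cytosolic ribosomal proteins 1 was higher and 0 lower (median 0.02), and of 76 nuclear subunits of oxidative phosphorylation 0 and 1 (median -0.05). The 15 mitochondrial genome transcripts had a median of 0.31 with 0 members at that p, and 46 of 60 replication-dependent histones that passed the filter had a median of 0.07 with 0 higher and 1 lower. Of 26 p53 targets 0 were higher and 2 lower (7.69%, FAS and DDB2), and of 31 immediate early genes 0 and 1. RN7SK, an abundant noncoding RNA that total RNA libraries keep, held 61279, 62222 and 56686 CPM in the probe and 50448, 60728 and 63794 CPM in the photocaged libraries, where replicate 1 was the lowest. RN7SL1, the signal recognition particle RNA, did not overlap between forms, at 81008, 84560 and 71815 CPM in the probe and 92466, 88112 and 87832 CPM in the photocaged libraries (-0.18, interval -0.52 to 0.17), and its near-identical copies can share its reads. Without the low-count filter, entries named 7SK and RMRP were called higher in the probe form, by 1.68 and 0.95. Both entries also passed the filter, and neither was called with it or in any other alternative fit. RN7SK lay between -0.052 and 0.16 over all alternatives, unlike the 7SK entry, so these calls are uncertain. MAGED4B and its near-identical copy MAGED4 had log2 differences of 2.30 and -1.05, in opposite directions, and since the counting can split reads between copies both are uncertain.

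The difference between forms was then set against the other times and the other drug, each as a test of the difference itself. The change in the ibuprofen difference from 6 h to 12 h called 0 genes by edgeR (1925 at an unadjusted p under 0.05, 7 by DESeq2). From 12 h to 18 h it called 0 (886 unadjusted, 3 by DESeq2), and ibuprofen against ibufenac at 12 h called 0 (1605 unadjusted, 5 by DESeq2). Within each time or drug, the probe-against-photocaged comparison called 23 genes (0.119%) for ibuprofen at 6 h, 5 higher (0.0258%) and 18 lower (0.093%), 1 gene (0.00517%) at 18 h and 373 genes (1.93%) for ibufenac at 12 h, 175 higher (0.904%) and 198 lower (1.02%). The tests of the differences depended on the fit: with only their own libraries they called 457 genes from 6 h to 12 h (424 higher, 33 lower), 0 from 12 h to 18 h and 77 between the drugs (72 higher, 5 lower), and without the low-count filter 746, 90 and 681. Whether the forms differ more at one time or for one drug is therefore not settled by these counts.

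HMOX1 had its widest gap at 6 h, with 18.4 to 19.02 CPM in the probe and 53.3 to 68.5 CPM in the photocaged libraries (-1.68 ± 0.15, edgeR adjusted p = 9.05e-11). DMSO libraries of 6 h held 24.5 to 26.9 CPM, so the probe libraries lay below DMSO and the photocaged libraries above it. At 18 h the values were 18.1 to 24.1 and 24.3 to 30.4 CPM (-0.44 ± 0.15, edgeR adjusted p = 0.995). DMSO held 23.5 to 33.0 CPM at 18 h and overlapped both forms. The change of the HMOX1 difference from 6 h to 12 h was 0.92 ± 0.21 (interval 0.49 to 1.34; edgeR adjusted p = 0.253). Photocaged libraries were lower at each later time without overlap, and probe libraries were higher at 12 h than at 6 h; neither form was tested over time. TXNRD1 fell in the probe form relative to the photocaged form at 6 h by 0.35 (edgeR adjusted p = 0.00642) and differed by -0.09 at 18 h. RARB was the 1 gene called at 18 h, with 9.47 to 15.95 CPM in the probe against 4.27 to 5.61 CPM in the photocaged libraries (1.40 ± 0.24, edgeR adjusted p = 0.00504). NOP2 differed by -0.05 at 6 h and by -0.02 at 18 h, and HSPA8 by -0.07 and 0.08, so for these 2 genes the intervals away from 12 h include 0.

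For ibufenac at 12 h, HMOX1 fell in the probe form relative to the photocaged form by 0.77 (edgeR adjusted p = 0.00368), against -0.76 for ibuprofen. The difference between the drugs was 0.01 with an interval of -0.41 to 0.43. TXNRD1 differed between forms by -0.30 for each drug (difference between drugs -0.01, interval -0.18 to 0.17), and HSPA8 likewise by -0.30 for ibufenac and -0.31 for ibuprofen (interval of the difference -0.20 to 0.19). For ASNS the interval of the difference between the drugs left out 0: ibufenac libraries held 235 to 279 CPM in the probe and 169.9 to 179.97 CPM in the photocaged form (0.56, edgeR adjusted p = 4.16e-06), against 0.25 for ibuprofen. The difference between the drugs was -0.31 (interval -0.51 to -0.11), which did not pass adjustment (edgeR adjusted p = 0.529). RARB differed between forms by 0.49 for ibufenac, and the difference between the drugs was 0.52 (interval -0.17 to 1.20). HMGCS1 differed by 0.09 for ibufenac (difference between the drugs 0.23, interval 0.03 to 0.44, edgeR adjusted p = 0.567). Between the ibufenac forms, where 0.904% of all genes were called higher and 1.02% lower, 9 of 36 ATF4 targets were called higher and 0 lower, 1 of 27 NRF2 targets higher and 5 lower, and 0 of 23 heat shock genes higher and 8 lower. Cholesterol synthesis lay on the other side of 0 for ibufenac, with 0 of 25 genes called higher, 2 called lower and a median of -0.14, against 0.11 for ibuprofen. Between the ibuprofen forms this list's median was also above 0 at the other times, 0.04 at 6 h and 0.16 at 18 h, with 0 genes called. The differences between these medians were not tested.

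**Figure D4:**
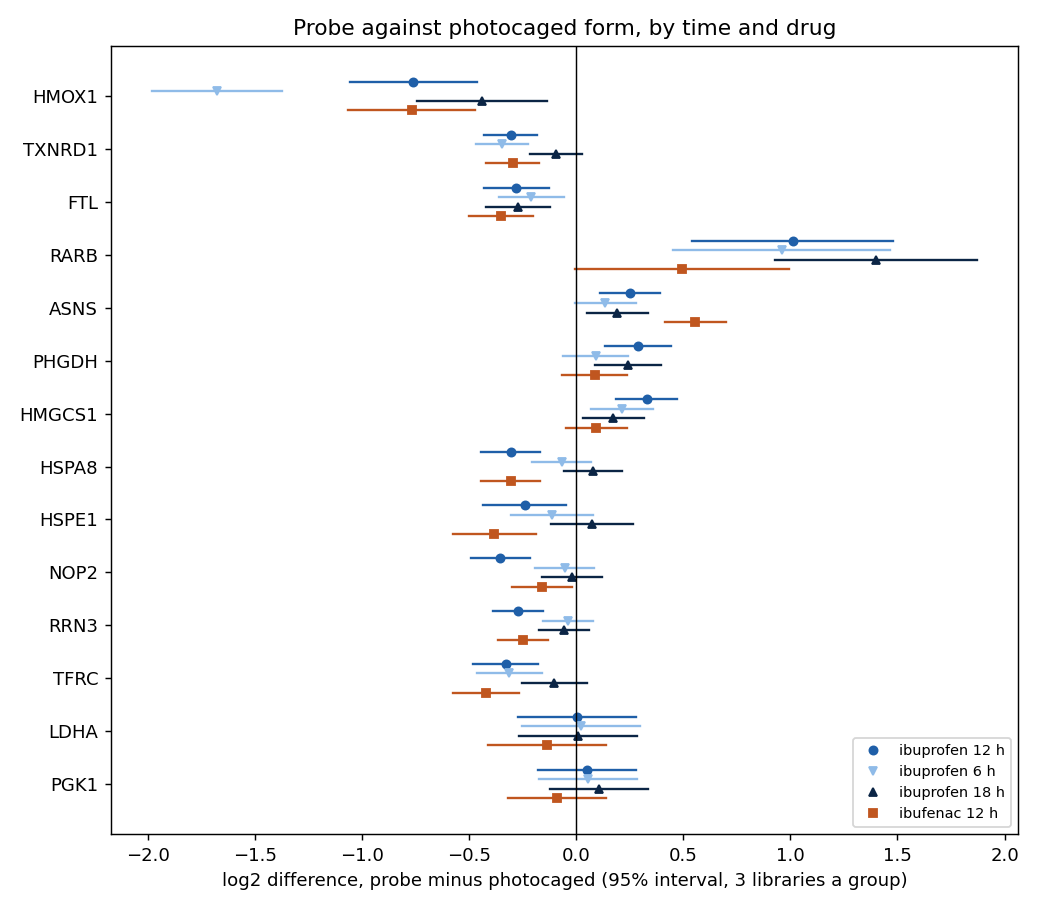
Log2 difference between probe and photocaged form (x axis, point with 95% interval, 3 libraries a group) for 14 genes (y axis), for ibuprofen at 6, 12 and 18 h and ibufenac at 12 h. HMOX1 lies below 0 in all 4 comparisons and RARB above 0 in the 3 ibuprofen comparisons, while NOP2 lies clear of 0 for ibuprofen only at 12 h and LDHA and PGK1 span 0 in all 4.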

How the data were processed

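RNA was sequenced from 63 libraries of HEK293T cells, total RNA depleted of ribosomal RNA in stranded libraries per the labels' protocols. The authors deposited expected counts for 58336 genes, not normalized, and a table of FPKM, which the authors scaled to gene length and depth; the FPKM were not used for any printed value. Of the deposited expected counts of 1 or more, 22.6% are not whole, and they were rounded. Aligner, counter, strand setting and build: not given in the sources used here. Symbols came from a current name table for 41885 genes and GENCODE 29 for 16331.

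In R 4.3.3, edgeR 4.0.16 fitted a two-sided quasi-likelihood test over all 63 libraries in 21 groups (TMM scaling, filterByExpr with a minimum count of 10, 19352 genes, 42 residual and 8.2 prior degrees of freedom), with Benjamini-Hochberg adjustment within each comparison at 0.05. Sharing 1 estimate of spread assumes like spread in all groups. Over all tested genes, pairs of photocaged libraries at 12 h differed by a root-mean-square log2 difference of 0.754 to 0.809. Probe pairs differed by 0.549 to 0.67 and pairs across the forms by 0.601 to 0.798, so the assumption is uncertain here. CPM are counts per 1000000 of the TMM-scaled library, and marker sums per 1000000 of the total. Fold changes are log2 values with SE, and intervals are 95% from the t distribution at 50.2 degrees of freedom. Alternatives were DESeq2 1.42.0, RLE factors, no filter, only the compared libraries, a replicate block, GC and length trends removed, and each library left out. The edgeR test between the forms was tried on simulated counts, drawn from its own fitted model with known changes planted. The tests by time and drug and the alternative fits were not tried in this way.

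Members, gene lists (41, 5 of them cell markers) and tests were chosen with earlier results of these data known. The rule named called genes without overlap between forms (none arose) and 22 fixed genes; the others were chosen after their values were seen. No library pair within the probe or photocaged group at 12 h agreed within sampling noise.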

Additional observations from a re-analysis of the deposited data

How the results depend on the processing

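Over all 63 libraries, the count of 0 genes between the forms stayed 0 with RLE factors, with the replicate block and without each of the 6 libraries in turn (0 to 0, with 747 to 1278 genes at an unadjusted p under 0.05). It was 12 with DESeq2, 3 with GC and length trends removed, 8 with only the 6 libraries fitted and 84 without the low-count filter. All 84 were also tested with the filter, so they were not genes that the filter removed. With the filter, 32 of the 84 had an unadjusted p under 0.05 by edgeR, and 0 were called. The cause of these differences was not tested. HMGCS1 and HSPA8 were called in each of these 4 fits. HMOX1 was called in all of them but DESeq2 (adjusted p over all alternatives 2.12e-06 to 0.499), NOP2 by DESeq2 and with only the 6 libraries (0.00288 to 0.441), TXNRD1, RRN3 and TFRC by DESeq2, TFRC also without the filter, DDIT4 without the filter and with only the 6 libraries, and RARB without the filter (0.00307 to 0.960).

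The tests of differences by time and drug gave, for 6 h to 12 h, 12 h to 18 h and between drugs, 7, 3 and 5 genes with DESeq2, 746, 90 and 681 without the filter, and 457, 0 and 77 with only their own libraries. From 12 h to 18 h the count was 0 to 1 with each library left out (1 without ibuprofen probe 12 h replicate 3), and 0 to 0 for the other differences.

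The replicate numbers were used as a block within time although same-numbered libraries of the forms deviated together by correlations of only 0.012, 0.029 and 0.005. These were taken over all tested genes, low-count genes included, so they cannot show whether same-numbered libraries share a culture or batch. With the block 0 genes were called in each of the 4 comparisons.

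The following log2 differences changed sign when single libraries were left out, given as lowest to highest. Those near 0 were XBP1 -0.11 to 0.0019, HSPA5 -0.028 to 0.048, LDHA -0.073 to 0.048, PGK1 -0.0075 to 0.10 and RN7SK -0.052 to 0.11. The wider ones were GNG2 -0.44 to 0.041, CDH3 -0.53 to 0.22, SLC16A9 -0.19 to 0.049 and PTGS2 -0.11 to 0.39. Depth limits the genes under 1 CPM.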
